A study of Mus musculus with 6 samples.

Results

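The 6 genes described here are Zmiz1, Zmiz2, Pias1, Pias2, Pias3 and Pias4, a family of SUMO ligases and related coregulators, chosen by gene symbol from the 24972 genes of a deposited expression table. RNA came from mouse cortex at postnatal day 7, in 3 libraries labelled wildtype and 3 labelled Zmiz1-KO. By the labels both groups carry the floxed allele Zmiz1f/f, and the Zmiz1-KO group adds Emx1Cre. Emx1 drives Cre in dorsal forebrain progenitors, the source of excitatory neurons, astrocytes and part of the oligodendrocytes of the cortex, so interneurons, microglia and endothelium of the same tissue keep the gene. The labels say that progenitor cells were isolated from the cortices, whereas the paper describes dissected cortices. Which exons are floxed, and whether each library is 1 animal, is not given in the sources used here, so the p-values measure the spread between these samples.

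PIAS proteins, the protein inhibitors of activated STAT, are E3 ligases that promote the attachment of SUMO, a small protein modifier, to transcription factors and chromatin proteins. Their ligase activity needs a zinc finger of the SP-RING type, also called a MIZ finger, and members of the family restrain or redirect STAT and nuclear receptor transcription. ZMIZ1 (ZIMP10) and ZMIZ2 (ZIMP7) carry the same finger and are known as transcriptional coregulators, ZMIZ1 with Notch1, p53 and Smad proteins, and ZMIZ2 with beta-catenin. Variants in human ZMIZ1 cause a neurodevelopmental disorder.

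The values are normalized counts, read counts per gene after scaling by the authors. They summed to 32677419 to 33239707 per wildtype library and to 32661979 to 32942390 per library labelled Zmiz1-KO. These sums follow the scaling and are not the sequencing depth. The sum divided by the step between low values is a rough estimate of the counted reads. It was 15494272 to 16553639 in wildtype and 16267903 to 17857835 in the Zmiz1-KO-labelled group. Whole reads times 1 factor per library do not give all of the values. In Zmiz1-KO-labelled replicate 2 the step was 1.829, but Ddx3y was at 1.886 and Eif2s3y at 1.910. Whether the scaling of Zmiz1 differed from that of other genes was not tested. Groups were compared with limma on log2(value + 1), and a gene was called at an adjusted p at or under 0.05 over 15800 tested genes. All 6 family members were among the tested genes.

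Zmiz1, the gene targeted by the floxed allele, was higher in the group labelled as its knockout, so that group is named by its label throughout. By qPCR the paper reports the opposite direction, with lower Zmiz1 in its Zmiz1-KO samples. The paper also lists Zmiz1 among the differentially expressed genes of this RNA sequencing, and presents the qPCR as a check of lower expression. The qPCR values are not in the deposited table. In replicates 1, 2 and 3 Zmiz1 had 8119, 7929 and 7461 normalized counts for wildtype and 9944, 9779 and 9660 under the Zmiz1-KO label. The 3 libraries of the Zmiz1-KO-labelled group were all high and close to each other, and the groups did not overlap. Wildtype averaged 7836 ± 339 and the Zmiz1-KO-labelled group 9794 ± 143 (SD, n = 3 per group), which was 25.1% higher on the fitted scale (95% interval 17.9 to 32.6%). This was 0.32 on the log2 scale (standard error 0.040) with a limma adjusted p of 0.00125, higher in 3 of 3 libraries, and the exact two-sided permutation p was 0.1, the smallest that 3 libraries against 3 allow. By p it was number 4 of the 15800 tested genes and number 2 among those higher under that label, while by the size of its change it was number 1502. Without a variance trend in the limma fit the change was still 0.32, but the adjusted p was 0.38, and over its alternatives the limma adjusted p ran from 9.17e-05 to 0.38.

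Zmiz1 was the 1 gene of the 6 that was called, and also the 1 whose groups did not overlap. Among all tested genes limma called 65, or 0.411%, and 26 of them, or 0.165% of the tested genes, were higher under the Zmiz1-KO label, as Zmiz1 was. At an unadjusted p under 0.05 there were 1733, or 11%. No overlap between the groups was found in 2570 of the 15800 tested genes, or 16.3%, so 1 of 6 is near that background. The number of called genes moved with single libraries, to 30 without wildtype replicate 1 and to 17, 152 and 12 without Zmiz1-KO-labelled replicates 1, 2 and 3, and Zmiz1 was called in each of these fits.

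The table gives 1 value per gene, so transcripts that hold the floxed part and those that lack it cannot be told apart, and whether each library has the genotype of its label was not tested. GENCODE places Zmiz1 (ENSMUSG00000007817.15) on the plus strand of chromosome 14 of GRCm38 from 25459185 to 25666743, with 8 transcripts of which 2 code for protein. Its exons share 297 bases with Zmiz1os1, an antisense gene on the opposite strand that the table does not list, and 1.80% of the 75-base stretches of Zmiz1 transcripts also occur in other genes. The TruSeq RNA kit named in the labels does not keep the strand of a transcript, so in these bases reads from Zmiz1 and from its antisense gene cannot be told apart. The microRNA gene Mir3075, inside Zmiz1, was listed at 0 in all 6 libraries. None of the 75-base stretches of the other 5 members occurs in another gene.

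Xist, the RNA that coats the inactive X chromosome, was high in replicate 3 of wildtype and replicate 2 of the other group, and the Y-linked gene Ddx3y was high in the other 4 libraries. Each group thus held 2 male libraries and 1 female library. The log2 difference of Zmiz1 was 0.29 between the male libraries and 0.39 between the female libraries, with 1 female library a group and so no test.

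Zmiz2, the closest relative of Zmiz1, had 12445, 11245 and 11708 normalized counts in wildtype and 12255, 11684 and 12062 in the Zmiz1-KO-labelled group. The highest and the lowest value were both wildtype, and the groups overlapped. The log2 fold change was 0.025 (95% interval -0.062 to 0.11, limma adjusted p = 0.884), and without wildtype replicate 2 it turned to -0.0088. On the fitted scale the interval runs from -4.21 to 8.12%, so it does not reach the 17.9% at the lower end of the Zmiz1 interval. Zmiz2 (ENSMUSG00000041164.15) lies on the plus strand of chromosome 11 of GRCm38 from 6389074 to 6406158.

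The ratio of Zmiz1 to Zmiz2 normalized counts was 0.652, 0.705 and 0.637 in wildtype and 0.811, 0.837 and 0.801 in the Zmiz1-KO-labelled group. The groups did not overlap, with means of 0.665 ± 0.0356 and 0.816 ± 0.0185 (SD, n = 3 per group) and an exact permutation p of 0.1. The log2 ratio of Zmiz1 to each of the other 5 members was higher under the Zmiz1-KO label without overlap, by 0.30 against Zmiz2, 0.44 against Pias1, 0.32 against Pias2, 0.37 against Pias3 and 0.34 against Pias4. Each of these 5 exact permutation tests gave p = 0.1, also after Benjamini-Hochberg adjustment over the 5. Ratios of Zmiz1 to the other 15799 tested genes did not overlap between the groups for 11213 of them, or 71%, so the same held against most other genes.

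**Figure D1:**
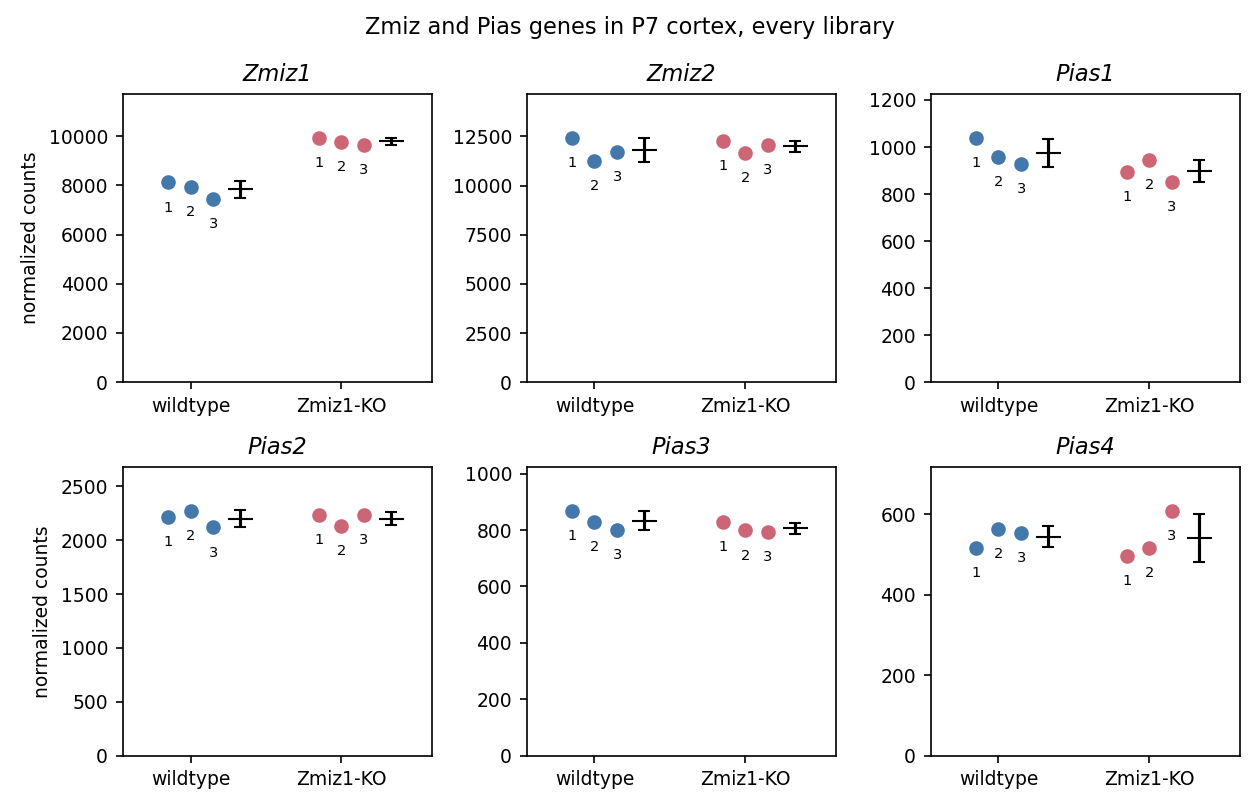
Normalized counts of the 6 genes in every library, with replicates 1 to 3 of wildtype (blue) and of the Zmiz1-KO-labelled group (red); the black mark beside each group is its mean with SD (n = 3), and each vertical axis starts at 0. The 3 Zmiz1 values labelled Zmiz1-KO, 9660 to 9944, lie above the 3 wildtype values, 7461 to 8119, and the groups overlap in the other 5 genes.

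Pias1, a SUMO ligase that restrains STAT transcription, had the lowest fold change of the family. It had 1040, 959 and 927 normalized counts in wildtype and 894, 944 and 851 in the Zmiz1-KO-labelled group. Zmiz1-KO-labelled replicate 2 lay above wildtype replicate 3, so the groups overlapped. Its change on the log2 scale was -0.12 (standard error 0.068, 95% interval -0.27 to 0.023), with a limma adjusted p of 0.550 and an exact permutation p of 0.2. On the fitted scale the interval runs from -16.8 to 1.62%, so it holds both no difference and a decrease of that size. Pias1 (ENSMUSG00000032405.10) lies on the minus strand of chromosome 9 from 62878368 to 62987924.

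Pias2, a SUMO ligase also called PIASx, had 2214, 2270 and 2118 normalized counts in wildtype and 2234, 2130 and 2237 in the Zmiz1-KO-labelled group. The values of the groups interleaved, and wildtype held both the highest and the lowest. Its log2 fold change was -7.6e-05 (95% interval -0.10 to 0.10, limma adjusted p = 1.00), a value so near 0 that its sign changed with limma-voom and each of the 3 other scalings. Pias2 (ENSMUSG00000025423.16) is on the plus strand of chromosome 18 from 77065208 to 77153800.

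Pias3, an inhibitor of STAT3, had 868, 830 and 801 normalized counts in wildtype and 828, 799 and 793 in the Zmiz1-KO-labelled group. Zmiz1-KO-labelled replicate 1 lay among the wildtype values and the other two lay just under them. The log2 fold change was -0.046 (95% interval -0.19 to 0.095, limma adjusted p = 0.868, exact permutation p = 0.2). Pias3 (ENSMUSG00000028101.18) is on the plus strand of chromosome 3 from 96696384 to 96706070, and its exons share 4 bases with Nudt17 on the opposite strand.

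Pias4, also called PIASy, a ligase that acts at sites of DNA damage and on Smad proteins, had 516, 563 and 555 normalized counts in wildtype and 496, 517 and 608 in the Zmiz1-KO-labelled group. Replicates 1 and 3 labelled Zmiz1-KO were the lowest and the highest of the 6 libraries. This gave the widest spread of the family, a coefficient of variation of 11.0% in the Zmiz1-KO-labelled group against 4.63% in wildtype. The log2 fold change was -0.016 (95% interval -0.20 to 0.17, limma adjusted p = 0.972), and it turned to 0.0092 without wildtype replicate 2, to 0.043 without Zmiz1-KO-labelled replicate 1 and to 0.014 without Zmiz1-KO-labelled replicate 2. Pias4 (ENSMUSG00000004934.14) is on the minus strand of chromosome 10 from 81153266 to 81167923.

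**Figure D2:**
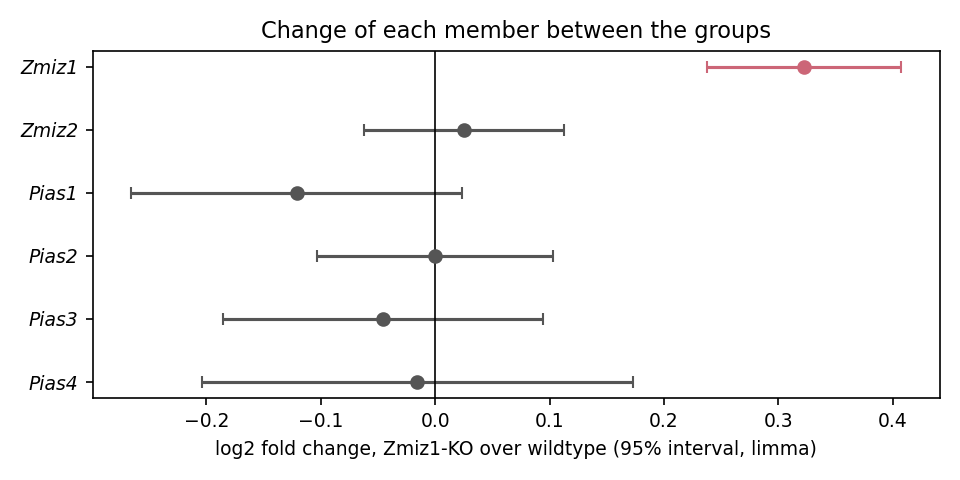
Log2 fold change of each gene, libraries labelled Zmiz1-KO over wildtype, with the 95% interval from limma (3 libraries per group); the vertical line marks 0 and the called gene is red. The interval of Zmiz1, 0.24 to 0.41, lies above 0, and the intervals of the other 5 genes include 0.

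Levels were compared between the genes as normalized counts per kilobase of all annotated exons. Zmiz2 was the most abundant, at 2535 ± 130 per kilobase in wildtype and 2578 ± 62.4 in the Zmiz1-KO-labelled group (SD, n = 3 per group), above 97.0% of 15589 tested genes. Its level was 4.05 times that of Zmiz1 in wildtype and 3.30 times in the Zmiz1-KO-labelled group. This ratio depends on the length used, and was 2.61 and 2.12 with the longest transcript and 2.36 and 1.92 with the median coding transcript. Zmiz1 followed with 626 ± 27.1 per kilobase in wildtype and 782 ± 11.4 in the Zmiz1-KO-labelled group (SD, n = 3 per group). Zmiz1 and Pias2 were neighbours in this order, since Pias2 had 614 ± 21.4 per kilobase in wildtype and 613 ± 17.0 in the Zmiz1-KO-labelled group (SD, n = 3 per group). Their wildtype values overlapped, with a ratio of Zmiz1 to Pias2 of 1.02 in wildtype and 1.28 in the Zmiz1-KO-labelled group, although Zmiz1 lay above Pias2 in 6 of 6 libraries. With the longest transcript the wildtype ratio was 1.46, without overlap, and with the median coding transcript the wildtype values of Zmiz1 also lay above those of Pias2 without overlap. Pias2 was thus the most abundant of the Pias genes in this cortex.

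The other Pias genes were lower, with 213 ± 8.56 per kilobase for Pias3, 147 ± 6.83 for Pias4 and 143 ± 8.57 for Pias1 in wildtype (SD, n = 3 each). On this scale Pias4 and Pias1 overlapped and did not differ beyond their spread. With the longest transcript the order was kept, and Pias4 was 1.21 times Pias1 in wildtype, without overlap. With the median coding transcript Pias3 moved to the last position of the 6, and Pias4 and Pias1 overlapped again. Zmiz2, Zmiz1 and Pias2 kept positions 1, 2 and 3 with each of the lengths tried.

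Of the summed level per kilobase of the family, Zmiz1 made up 14.6, 15.1 and 14.2% in wildtype and 17.5, 17.9 and 17.2% in the Zmiz1-KO-labelled group. These shares did not overlap, with means of 14.6 ± 0.46% and 17.6 ± 0.33% (SD, n = 3 per group). Zmiz2 made up 59.3 ± 1.34% and 57.8 ± 0.34% (SD, n = 3 per group), with overlapping groups. The shares of Pias1, 3.34 ± 0.093% and 2.95 ± 0.20%, and of Pias3, 4.97 ± 0.093% and 4.62 ± 0.088% (SD, n = 3 per group), were lower without overlap. Those of Pias2 and Pias4 overlapped. The shares add up to the whole, so a higher share of 1 gene lowers the others.

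**Figure D3:**
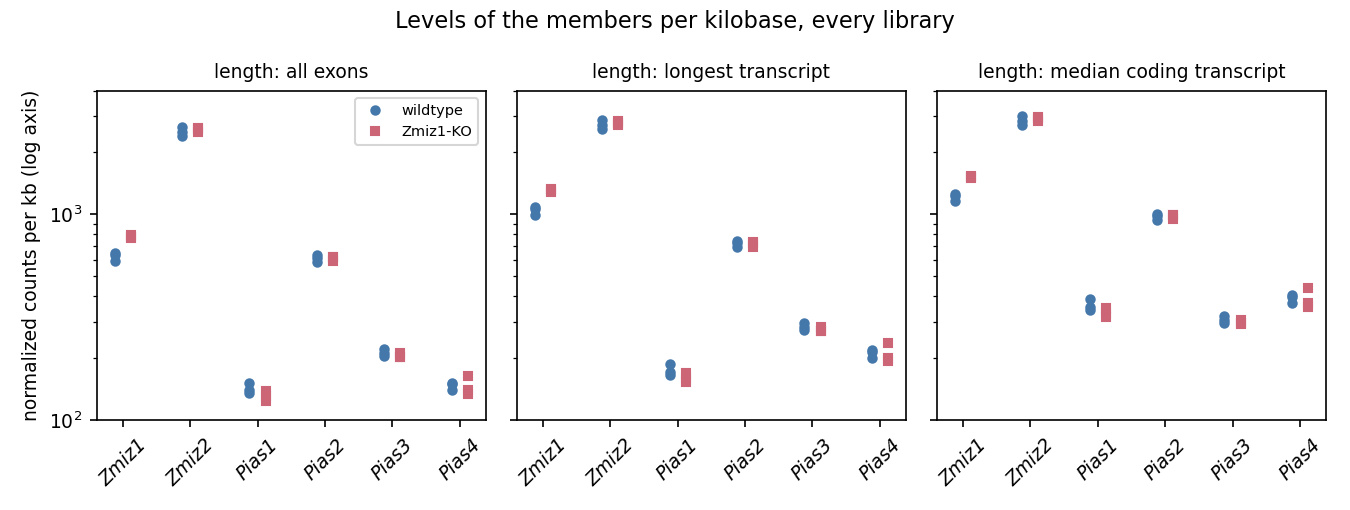
Normalized counts per kilobase of each gene in every library, on a log axis, for wildtype (blue circles) and the Zmiz1-KO-labelled group (red squares), with 3 definitions of gene length side by side. Zmiz2 is highest in each panel, and the order of Pias1, Pias3 and Pias4 differs in the panel for the median coding transcript.

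RefSeq promoter windows of GRCm38.p6, from 250 bases before to 50 bases after a start, were available for Zmiz1, Pias1 and Pias3, which has 2. The windows of Zmiz1 and Pias1 are shown because Zmiz1 was the gene that was called and Pias1 had the largest difference in the other direction. Capitals mark CCAAT (the CCAAT box) or GGGCGG (the GC box), each searched on both strands, so that the reverse complement is also in capitals.
Zmiz1: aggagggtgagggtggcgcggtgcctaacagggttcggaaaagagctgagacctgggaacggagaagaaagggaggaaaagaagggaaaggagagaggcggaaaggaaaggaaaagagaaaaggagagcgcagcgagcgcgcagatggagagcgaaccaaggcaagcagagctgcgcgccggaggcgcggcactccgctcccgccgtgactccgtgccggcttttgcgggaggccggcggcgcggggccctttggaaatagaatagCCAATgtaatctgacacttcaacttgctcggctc
Pias1: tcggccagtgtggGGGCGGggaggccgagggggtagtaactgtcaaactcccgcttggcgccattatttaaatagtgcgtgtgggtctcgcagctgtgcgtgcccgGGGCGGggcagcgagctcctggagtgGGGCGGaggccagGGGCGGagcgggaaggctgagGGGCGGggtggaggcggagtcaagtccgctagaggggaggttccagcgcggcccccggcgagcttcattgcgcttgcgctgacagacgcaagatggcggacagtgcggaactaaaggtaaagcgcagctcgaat
The Zmiz1 window is chr14:25458935-25459234 on the plus strand and the Pias1 window is chr9:62980830-62981129 on the minus strand, where the RefSeq start lies inside the GENCODE gene. Zmiz1 has 26 CpG dinucleotides and Pias1 has 28, against a median of 7 over 32851 promoters. The Zmiz1 window holds 1 CCAAT box, which lies in the 50 bases after the start, and no GC box. The Pias1 window holds 5 GC boxes and no CCAAT box. Over all promoters 37.4% hold a CCAAT box and 35.7% a GC box. The letters of the cAMP response element (TGACGTCA, in 1.79% of promoters), the AP-1 site (TGANTCA, 7.81%), the EGR site (GCGTGGGCG, 0.612%, which shares letters with the GC box) and the TATA box (TATAAA, 13.6%) are not in either window, on either strand.

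In the SUMO pathway ligases direct the modifier to its targets and proteases remove it. Of 27 tested genes of this pathway outside the family, limma and limma-voom called 0, and 5 had an unadjusted p under 0.05, which 11% of all tested genes had. By sign, 12 were higher and 15 lower under the Zmiz1-KO label, with a median log2 fold change of -0.0049 against -0.00018 over all tested genes, and under limma-voom and upper-quartile scaling the median was above 0. In 7 of the 27 there was no overlap between the groups, 2 of them higher and 5 lower, against 16.3% of all tested genes in either direction. Sumo2, which encodes a form of the modifier that builds chains, was at 0.034 (limma adjusted p = 0.816) and was the most abundant per kilobase, and 15.8% of its 75-base stretches also occur elsewhere, mostly in Gm10241. Next in level were Rangap1, the first known SUMO target (0.033), and Trim28, a corepressor with SUMO ligase activity (0.098, limma adjusted p = 0.429).

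Zfp451, a SUMO ligase of another class that builds SUMO chains, had 931, 951 and 956 normalized counts in wildtype and 737, 847 and 725 in the Zmiz1-KO-labelled group. The groups did not overlap, and Zmiz1-KO-labelled replicate 2 was nearest to wildtype. Its log2 difference was -0.30 (standard error 0.072) and missed the threshold (limma adjusted p = 0.0976), but without Zmiz1-KO-labelled replicate 2 it was called at -0.37 (limma adjusted p = 0.0181, with a range of 0.0181 to 0.447 over the alternatives). Ranbp2, a nucleoporin with SUMO ligase activity, was at -0.17 (limma adjusted p = 0.289). Without the same library it was called too, at -0.24 (limma adjusted p = 0.0304, range 0.0304 to 0.697). Rnf111, a ubiquitin ligase that recognizes SUMO chains, was at -0.20 (limma adjusted p = 0.168). Of the 10 proteases on the list, 8 were lower and 2 higher, between -0.15 and 0.056, with a lowest limma adjusted p of 0.348.

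PIAS proteins act on the STAT pathway, in which Janus kinases activate STAT factors and SOCS proteins and phosphatases switch them off. Of 23 tested genes of this pathway, limma and limma-voom called 0, and 1 had an unadjusted p under 0.05, against 11% of all tested genes. By sign, 9 were higher and 14 lower, with a median log2 fold change of -0.013, and the groups did not overlap in 5, against 16.3% of all tested genes. The 4 Janus kinase genes lay between -0.12 and -0.013. Socs3, a feedback inhibitor induced by STAT3, had 68.9, 85.9 and 84.3 normalized counts in wildtype and 110, 114 and 117 in the Zmiz1-KO-labelled group. The groups did not overlap, and the values are low. The difference was 0.51 on the log2 scale (standard error 0.17) with a limma adjusted p of 0.264. Of the 8 SOCS family genes on the list, Cish included, 3 were higher and 5 lower, and none was called. Besides Socs3, those with the largest changes or the highest level were Socs4 at -0.32 (limma adjusted p = 0.602), Socs1 at -0.29 (limma adjusted p = 0.770) and Socs7, the most abundant of them per kilobase, at -0.076 (limma adjusted p = 0.524). Jak1 (-0.013) and the phosphatase gene Ptpn11 (-0.0072) were the most abundant per kilobase of the whole list.

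The partner list holds known and potential ZMIZ1 interaction partners named in the paper, most of them from interaction databases. Some are also SUMO pathway genes. Of the 23 tested genes of this list, limma and limma-voom called 0, and 2 had an unadjusted p under 0.05 (11% of all tested genes). By sign, 12 were higher and 11 lower, with a median log2 fold change of 0.0021, and the groups did not overlap in 3 (16.3% of all tested genes). Satb1, a chromatin organizer that PIAS1 modifies with SUMO, was at -0.27 (limma adjusted p = 0.0932). It was called at -0.32 without wildtype replicate 3 (limma adjusted p = 0.0356) and at -0.27 with a sex covariate (limma adjusted p = 0.0353), with a range of 0.00130 to 0.496 over the alternatives. Pcna, the replication clamp and a known SUMO target, was at 0.12 (limma adjusted p = 0.411) and shares 13.8% of its stretches with other genes, mostly Pcna-ps2. Ctnnb1, which encodes beta-catenin, was the most abundant per kilobase at -0.0042 on the log2 scale (limma adjusted p = 0.982), with 11.1% shared stretches, and the chromatin remodeler gene Smarca4 was at -0.0062 (limma adjusted p = 0.977).

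Within 1 Mb of Zmiz1 the table lists 25 other genes, of which 17 were tested. Limma and limma-voom called 0 of these, and 3 had an unadjusted p under 0.05, against 11% of all tested genes. Under the Zmiz1-KO label 11 were higher and 6 lower, with a median log2 fold change of 0.045. The nearest tested gene, Ppif, which encodes the mitochondrial cyclophilin D, starts 27411 bases after Zmiz1 and was at 0.045 (limma adjusted p = 0.889), with 15.1% of its stretches shared, mostly with its antisense gene. That antisense gene, Ppifos, was at 0.0061, and the zinc finger gene Zcchc24, 44899 bases away, was at 0.020 (limma adjusted p = 0.938). Anxa11 (0.083), Polr3a (0.049), Slmap (-0.12), Arf4 (-0.0076), Pde12 (-0.016) and the noncoding 4933413J09Rik (0.054) had overlapping groups. Rps24, a ribosomal protein gene, was at 0.080 (limma adjusted p = 0.438), and Dennd6a was at -0.11 (limma adjusted p = 0.578), both without overlap. The largest values belong to repeated genes that share 73.4 to 100% of their stretches with each other or with other copies, Tmem254a (-0.24), Tmem254b (3.08, standard error 3.12), Tmem254c (1.44, standard error 2.85), Duxbl2 (-1.72, standard error 1.95), Plac9a (0.43) and Plac9b (1.02, groups not overlapping, limma adjusted p = 0.354). Tmem254b and Tmem254c were each at 0 in 1 wildtype library and Duxbl2 in 1 library under the Zmiz1-KO label, which sets their values on the log scale. By its mean Tmem254c was lower, with 314 ± 411 normalized counts in wildtype and 137 ± 27.6 in the Zmiz1-KO-labelled group (SD, n = 3 per group), although its sign on the log scale is among the 11 higher.

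The 5 genes whose profile over the 6 libraries was most like that of Zmiz1, by the root mean square difference of centred log2 values, were Dach1 (0.032), P2rx3 (0.034), Msrb3 (0.038), Snhg5 (0.049) and Erf (0.050). Likeness over 6 libraries chooses genes with the same group difference, so their changes are a description. Dach1, a transcriptional cofactor, had 670, 688 and 651 normalized counts in wildtype and 876, 855 and 848 in the Zmiz1-KO-labelled group, and these groups did not overlap. Its log2 fold change was 0.36, against 0.27 for Erf, a repressor of the ETS family, and 0.28 for P2rx3, which had a low level, 48.1 and 58.7 normalized counts on average in wildtype and the Zmiz1-KO-labelled group. For Zmiz2 the nearest profiles were those of Rnf180 (0.0080), Mrps21 (0.012), Hk1 (0.012), Rps6kc1 (0.013) and Gucy1b1 (0.014), with log2 fold changes of 0.013 to 0.043.

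The defining markers of the labelled tissue, those of cortical excitatory neurons, were high in every library. The 7 excitatory neuron markers summed to 59820 to 64109 normalized counts in wildtype and 58985 to 63137 in the Zmiz1-KO-labelled group, with Nrgn the most abundant. By sign 1 was higher and 6 lower. Of these 6, Slc17a7 was at -5.5e-06, and with limma-voom and each of the 3 other scalings 2 were higher and 5 lower. In limma 1 of the 7 was called, against 0.411% of all tested genes, namely Emx1, whose control drives Cre, at -0.53 (limma adjusted p = 0.0150). An unadjusted p under 0.05 was found for 3 of the 7, against 11% of all tested genes. The 7 interneuron markers were all higher, and summed to 16296, 20109 and 18261 normalized counts in wildtype and 21406, 23000 and 21674 in the Zmiz1-KO-labelled group, with Gad1 the most abundant and none at 0. These sums did not overlap, although limma and limma-voom called 0 of the 7, with 5 at an unadjusted p under 0.05 in limma, which 11% of all tested genes had, and 1 was called after upper-quartile scaling. The 7 markers of the striatum, which lies under the cortex, were also all higher, with sums of 11958, 14178 and 14630 in wildtype and 15456, 16025 and 14458 in the Zmiz1-KO-labelled group, which overlap, Foxp1 the most abundant and none at 0. Without Foxp1 the striatal sums did not overlap, at 6547, 8411 and 8949 against 9600, 10048 and 8978, and the interneuron sums did not overlap without Gad1 either. Limma and limma-voom called 0 of the 7 striatal markers, and 2 had an unadjusted p under 0.05, against the same 11%. Wildtype replicate 1 had the lowest sum of both lists and the highest Zmiz1 of the wildtype libraries, and without it the log2 fold change of Zmiz1 was 0.35. In bulk tissue fewer cells of a type and less RNA per cell cannot be told apart, and the part of interneuron and striatal RNA in the Zmiz1 difference was not tested.

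Markers of pericytes and meninges summed to 14516, 18203 and 18499 normalized counts in wildtype and 19433, 20484 and 18552 in the Zmiz1-KO-labelled group, without overlap, with Igf2 the most abundant. By sign 5 were higher and 2 lower. Of the pericyte markers Pdgfrb was at 0.094 without overlap, and Rgs5 (-0.15, limma adjusted p = 0.878) and Kcnj8 (-0.16, limma adjusted p = 0.710) had overlapping groups. In the rest of the list Col1a1 (0.34), Igf2 (0.30) and Dcn (0.22) were higher without overlap, and Lum (0.059) had overlapping groups. Without Igf2 the sums overlapped, at 7376, 9374 and 9445 against 9453, 9393 and 8928. The ratio of summed means, libraries labelled Zmiz1-KO over wildtype, was then 1.06, against 1.14 with Igf2. Oligodendrocyte lineage markers summed to 12269, 13919 and 12309 in wildtype and 11863, 11842 and 11401 in the Zmiz1-KO-labelled group, also without overlap, with Pdgfra the most abundant. Of these markers 1 was higher and 6 lower. Without Pdgfra these sums overlapped too, but the ratio of their means was 0.912 both with and without Pdgfra. Limma and limma-voom called 0 of the 7 genes in each of these lists, and 3 in each had an unadjusted p under 0.05 in limma, against 11% of all tested genes. Their part in the Zmiz1 difference was not tested. The ratio of summed means, libraries labelled Zmiz1-KO over wildtype, was 0.945 for astrocytes, with 1 of 7 genes called, Aqp4 (limma adjusted p = 0.00499), against 0.411% of all tested genes. Of these 7, 2 had an unadjusted p under 0.05, against 11%, and 3 had groups that did not overlap, against 16.3%. The same ratio was 0.972 for microglia, 1.02 for endothelium, 0.974 for thalamus, 1.10 for proliferating cells and 0.874 for erythrocytes, of which Hbb-bs was at 0 in 4 libraries and not tested, each with overlapping sums and none of their genes called by limma, with 2, 1, 0, 1 and 0 genes at an unadjusted p under 0.05, against the same 11%. Choroid plexus markers, led by Ttr, varied between libraries more than any other of these lists apart from the sex-linked genes, with sums of 368, 8548 and 6484 in wildtype and 3325, 445 and 4984 in the Zmiz1-KO-labelled group. Limma called 0 of these 7, and 0 had an unadjusted p under 0.05. Wildtype replicate 1 and Zmiz1-KO-labelled replicate 2 were low in them, with 8119 and 9779 normalized counts of Zmiz1, and the part of choroid plexus RNA in the Zmiz1 difference was not tested.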

How the data were processed

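Total RNA of cortex at postnatal day 7 was sequenced in 3 wildtype and 3 Zmiz1-KO libraries. The authors aligned reads to mouse mm10 with STAR in Illumina BaseSpace, counted them per gene and normalized the counts between libraries with DESeq2, and deposited 1 table of these signal values, called normalized counts here. Versions, the counting step and the annotation are not given in the sources used here. Low values lay within 0.1 of a step of a whole multiple in 87.6 to 91.5% of cases, but high values in 19.4 to 21.4%, so whole reads were not recovered and methods made for counts were not used, apart from limma-voom as an alternative. Estimated depth was 15494272 to 17857835 reads per library, and precision rests on this and on 3 libraries per group.

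Testing took genes that reached 10 in 3 or more libraries and was done with limma (version 3.58.1, R version 4.3.3) on log2(value + 1), with a variance trend and robust estimation, without covariates. P values are two-sided, with Benjamini-Hochberg adjustment over every tested gene and a threshold of 0.05. Gene ratios were tested by exact two-sided permutation. The procedure was tested on simulated data. Gene models are from GENCODE (GRCm38), matched by symbol for 24445 of 24972 genes, and promoters from RefSeq. Counts were made with Python (version 3.11.15), and plots with matplotlib (version 3.10.9).

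The members and lists were chosen with earlier results of these data known. Named genes are the 6 members, genes of each pathway list from those called, the 3 largest changes and the 3 highest levels per kilobase, tested genes within 1 Mb of Zmiz1, the 5 genes most like Zmiz1 and the 5 most like Zmiz2 in profile, Emx1, Xist and Ddx3y. Marker genes and genes of pathway subgroups were named besides, and marker sums taken without their most abundant gene, after the values were seen. Alternatives were limma-voom, 3 other scalings, pseudocounts of 0.1 and 10, other filters, no robust estimation, no variance trend, a threshold of 0.1, a replicate block, a sex covariate, other gene lengths and each library left out.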

Additional observations from a re-analysis of the deposited data

Results flagged for a closer look

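Pias1 differed in direction between the libraries read as male and as female from Xist and Ddx3y. Both male libraries labelled Zmiz1-KO, with 894 and 851 normalized counts, lay under both male wildtype libraries, with 1040 and 959, a log2 difference of -0.20. The female library labelled Zmiz1-KO, with 944, lay above the female wildtype library, with 927, a log2 difference of 0.027. The difference between the sexes, 0.22 on the log2 scale, was not tested, and each group held 1 female library. The log2 differences of Zmiz2 (0.039 in male and -0.0030 in female libraries), Pias2 (-0.0041 and 0.0079) and Pias4 (0.027 and -0.10) also had opposite signs, but there the male libraries of the groups overlapped.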

How the results depend on the processing

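The log2 fold change of Zmiz1 kept its direction and its call under 18 of 19 alternatives, between 0.29 and 0.35. Without a variance trend it was 0.32 with a limma adjusted p of 0.38, 0 family members and 0 of all tested genes were called, and 1396 had an unadjusted p under 0.05; the cause was not tested. Pias1 and Pias3 stayed lower and uncalled under all 19, between -0.16 and -0.074 and between -0.073 and -0.016, the values nearest 0 being those without wildtype replicate 1. Zmiz2 ran from -0.0088 to 0.064 with each library left out, Pias4 from -0.10 to 0.043 and Pias2 from -0.027 to 0.023. Pias2 was also above 0 with limma-voom (0.0059), median-ratio scaling (0.00019), upper-quartile scaling (0.010) and trimmed-mean scaling (6.4e-05). Of all tested genes, 17 were called without robust estimation, 106 at an adjusted p of 0.1, and 12 to 152 with each library left out. With each library left out, 0 to 2 SUMO pathway genes and 0 to 1 partner genes were called, and with a sex covariate 1 partner gene. The STAT pathway had 0 called under all 19 alternatives.

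With the replicate number as a replicate block, 168 genes were called, with 1 SUMO pathway gene (Zfp451, limma adjusted p = 0.0479) and 1 partner gene (Satb1, limma adjusted p = 0.00130) among them, and Zmiz1 was at 0.32 (limma adjusted p = 9.17e-05). Neither labels nor paper pair the libraries by number, and libraries of the same number were not alike (correlations across genes of -0.0051, -0.11 and -0.0063). The causes of these differences were not tested. The count-based tests planned as alternatives were not run, since whole reads were not recovered. At this depth and with 3 libraries a group, the 95% intervals of the 5 uncalled members reach from -16.8% (Pias1) to 12.7% (Pias4).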
